A study of Mus musculus with 12 samples.

Results

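The genes described here are 10 members of the NOD, inflammasome and NF-kB pathways, taken from the count table by their symbols, under a list drawn up with earlier results of these data known: Nod1, Ripk2, Nlrp3, Pycard, Casp1, Casp4, Gsdmd, Myd88, Nfkb1 and Nfkbia. All 10 had a row among the 25239 genes of the table. Brain and liver of male wild-type C57BL/6J mice aged 24 months were profiled by sequencing of messenger RNA, with 3 control and 3 heat stress libraries per tissue. The heat stress groups spent 3 h of every day in a chamber at 40 °C (relative humidity 60%), repeated for 15 days, and the labels describe the other mice of the same age only as control. Neither the labels nor the methods say which region of the brain was taken, or which brain and which liver came from 1 mouse. Replicates are separate libraries, and the p-values measure the spread between these libraries.

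NOD1 is a receptor in the cytosol that senses fragments of bacterial peptidoglycan, and it signals through the kinase RIPK2 to NF-kB. An inflammasome is built when a sensor such as NLRP3 recruits the adaptor ASC, the product of Pycard, and caspase-1, which then matures IL-1β and IL-18 and cuts gasdermin D into a pore-forming fragment. NF-kB is held in the cytosol by IκBα, the product of Nfkbia, a gene that NF-kB itself induces, and microglia in brain and Kupffer cells in liver are resident macrophages in which this machinery has been studied.

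Total counts per library lay between 10466198 and 15609040. Depth limits Nlrp3 and Casp4 most, since no library had more than 16 reads of Nlrp3 and brain had at most 18 reads of Casp4. Markers fitted the tissue labels. The 6 hepatocyte markers summed to between 69861 and 113471 CPM in liver. In brain they summed to between 229.7 and 2327 CPM, nearly all of it Ttr (227 to 2325 CPM), which choroid plexus also makes, and Alb reached at most 9.58 CPM. The 6 neuron markers summed to between 5675 and 8029 CPM in brain and between 13.0 and 32.1 CPM in liver. Some libraries stood apart. In liver control replicate 1 oligodendrocyte markers summed to 20.9 CPM, against 2.84 to 5.64 CPM in the other liver libraries. Its neuron markers summed to 32.1 CPM, against 13.0 to 18.3 CPM in the others. Skeletal muscle markers summed to 417 CPM in liver control replicate 1 and 2307 CPM in liver heat stress replicate 2, against 0.839 to 7.26 CPM in the other liver libraries, and neutrophil and monocyte markers summed to 33.8 CPM in brain heat stress replicate 2, against 5.21 to 11.96 CPM in the other brain libraries. In heat stress brain, 7 of 7 tested striatum markers were higher, and 5 of 7 choroid plexus markers and 5 of 5 endothelial markers lower, by the unadjusted p-value of 0.05. Of all genes tested in brain 10.0% were higher and 10.0% lower at that threshold. None of these markers passed an adjusted p-value of 0.05 in edgeR. The same effect on any transcript can come from fewer cells of a type or from less RNA per cell, which bulk libraries cannot tell apart.

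The promoters of 4 members are shown because NF-kB both drives and is governed by genes of this set: 3 windows hold a match to the 10-base NF-kB consensus, and that of Pycard, the brain gene with the smallest p-value among the members, holds none. Sequences are from RefSeq on GRCm38.p6, run 5′ to 3′ on the strand of the gene, and end at the base before the annotated gene body. The Nfkbia window is chr12:55492648-55492897 (minus strand), that of Casp4 is chr9:5308599-5308827 (plus strand), that of an upstream start of Nlrp3 is chr11:59541319-59541567 (plus strand) and that of Pycard is chr7:127993868-127994117 (minus strand). Capitals mark the matches, searched on both strands.
Nfkbia: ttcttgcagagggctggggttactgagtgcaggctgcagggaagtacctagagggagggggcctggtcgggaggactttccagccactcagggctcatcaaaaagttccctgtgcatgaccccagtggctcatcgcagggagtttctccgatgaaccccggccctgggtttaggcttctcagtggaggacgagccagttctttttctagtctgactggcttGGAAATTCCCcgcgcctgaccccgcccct
Casp4: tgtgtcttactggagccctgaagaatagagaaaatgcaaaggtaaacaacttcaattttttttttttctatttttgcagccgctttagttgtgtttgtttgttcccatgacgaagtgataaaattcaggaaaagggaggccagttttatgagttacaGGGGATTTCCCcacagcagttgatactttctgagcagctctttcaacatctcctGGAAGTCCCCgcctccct
Nlrp3: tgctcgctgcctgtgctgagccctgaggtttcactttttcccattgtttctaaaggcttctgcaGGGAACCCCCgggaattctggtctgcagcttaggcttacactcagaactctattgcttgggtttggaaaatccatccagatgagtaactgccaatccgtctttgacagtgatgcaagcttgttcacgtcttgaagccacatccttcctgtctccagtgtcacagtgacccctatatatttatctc
Pycard: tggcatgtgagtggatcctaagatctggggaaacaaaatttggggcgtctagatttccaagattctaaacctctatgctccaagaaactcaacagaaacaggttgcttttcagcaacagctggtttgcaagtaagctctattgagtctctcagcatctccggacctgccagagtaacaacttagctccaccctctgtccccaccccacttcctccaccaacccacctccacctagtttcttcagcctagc
The match of Nfkbia starts 29 bases before the RefSeq start site and lies on the opposite strand. Casp4 has 3 matches that overlap each other 93 and 92 bases before the first of its RefSeq start sites, on both strands, and another at 39 bases on the opposite strand. From its other RefSeq start site the same matches lie 104, 103 and 50 bases away, and both sites lie past the end of the sequence printed, which stops where the GENCODE gene begins. In Nlrp3 the same 10 bases, 186 before the upstream start site, match on both strands. The 250 bases before the start sites of Nod1, Casp1 and Myd88 and before the other start site of Nlrp3 (chr11:59542436-59542685) hold no match, which says only that these letters are not in those windows. Of 32851 RefSeq promoter windows of 250 bases, 7.25% hold at least 1 match. RefSeq promoters were matched for 7 of 10 members, not for Ripk2, Gsdmd or Nfkb1.

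In brain no member passed an adjusted p-value of 0.05 in edgeR (quasi-likelihood test, p-values adjusted by Benjamini-Hochberg over all genes), where 0% of the 14806 genes tested did. The unadjusted p-value was under 0.05 for 1 of 10 members, Pycard, which was higher after heat stress, beside 20.1% of all genes tested (10.0% higher and 10.0% lower). DESeq2 on the same 6 libraries gave 1 member at the unadjusted threshold, beside 2754 genes over the whole table. Its filter on low mean counts left all 10 members without an adjusted p-value, while it called 618 of the 7769 genes that kept one. Without that filter, an alternative added after the data were seen, DESeq2 called 287 genes and the smallest adjusted p-value of a member was 0.135, that of Pycard. The log2 fold changes of the 10 members ran from -0.54 to 1.01 with a median of 0.09, and the median of all tested genes was -0.0030. The groups did not overlap for 2 of 10 members, beside 24.9% of all genes tested: every heat stress library lay above every control library for Pycard and below them for Nfkb1. Normalized CPM are reads of a gene per 1e+06 counts of the library, scaled by TMM within the tissue.

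**Figure D1:**
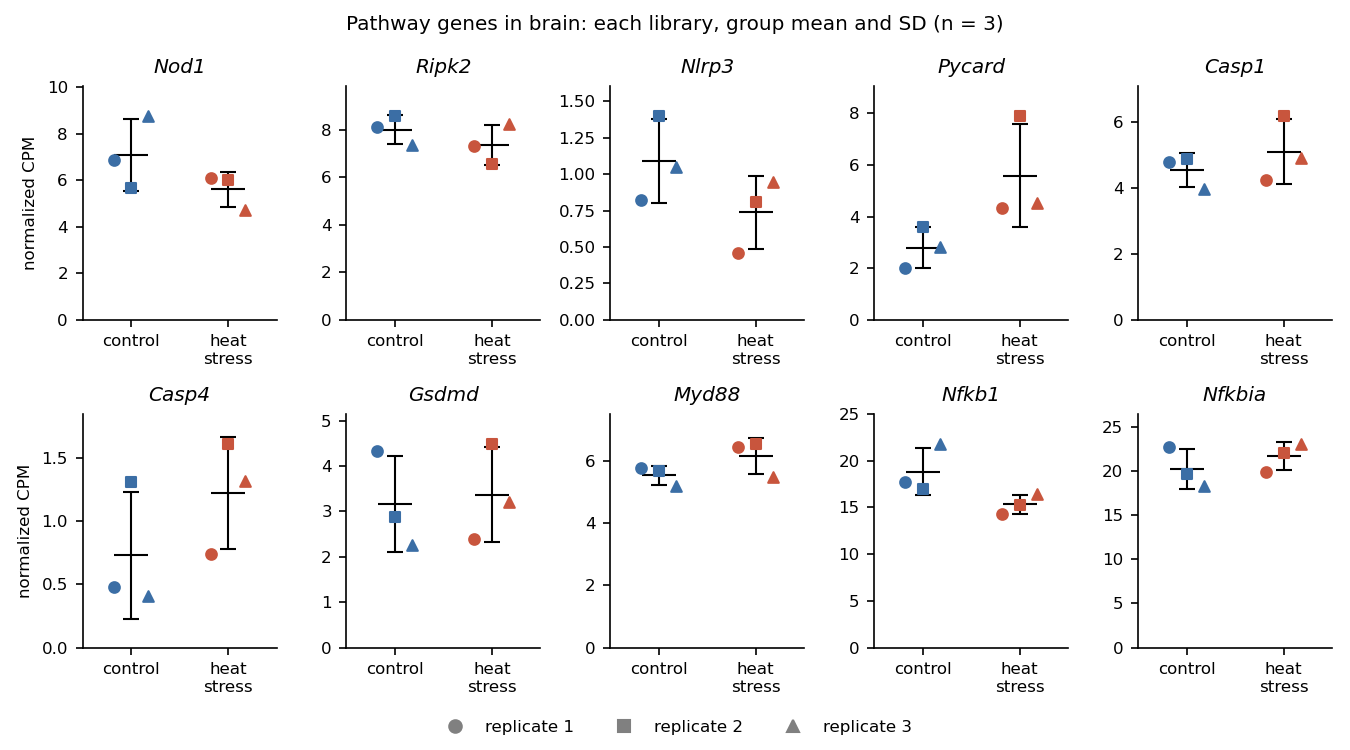
Normalized CPM (vertical axes, from 0) of the 10 genes in the 3 control and 3 heat stress brain libraries, with bars for the group mean and SD. Pycard lies above all control libraries in each heat stress library, from 4.34 to 7.88 against 1.99 to 3.58, and Nfkb1 lies below them, from 14.3 to 16.4 against 17.0 to 21.8.

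Nod1 (chr6:54923949-54972612, minus strand) had 6.86, 5.67 and 8.74 normalized CPM in control brain and 6.09, 6.00 and 4.72 after heat stress. The groups overlapped, with control replicate 3 the highest and heat stress replicate 3 the lowest. Its log2 fold change was -0.34 (SE 0.22, 95% interval -0.84 to 0.17; edgeR adjusted p = 0.412). Ripk2 (chr4:16122733-16163647, minus strand), the kinase that NOD1 and NOD2 share, had 8.09, 8.55 and 7.37 normalized CPM in control brain and 7.29, 6.54 and 8.22 after heat stress, with overlapping groups. Its log2 fold change was -0.12 (SE 0.18, adjusted p = 0.720). Single left-out libraries moved it between -0.21 and -0.046. With the choroid plexus and striatum scores as covariates it was -0.39 and -0.36. Markers of both differed between the groups, so these fits cannot part a score from the heat effect.

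Pycard (chr7:127989708-127993867, minus strand) was measured by 29, 41 and 35 reads in the control brain libraries and by 47, 88 and 48 reads in the heat stress libraries. As normalized CPM these were 1.99, 3.58 and 2.83 against 4.34, 7.88 and 4.53, or 2.80 ± 0.795 against 5.58 ± 1.99 (SD, n = 3 each). All 3 heat stress libraries lay above all 3 control libraries, and replicate 2 was far above the other heat stress libraries. The log2 fold change was 1.01 (SE 0.32, 95% interval 0.28 to 1.73; unadjusted p = 0.0117, edgeR adjusted p = 0.172), so the difference did not pass the adjustment over all genes. Without heat stress replicate 2 the log2 fold change was 0.67 and the unadjusted p-value of edgeR was 0.0575. That library also carried the most neutrophil and monocyte transcript of the 8 markers listed, most of it S100a8 at 12.7 CPM and S100a9 at 15.8 CPM against at most 4.52 and 5.58 CPM in the other brain libraries, and it was the highest for Retnlg and Chil3 as well. Mpo and Ly6c2 were not raised in it, and Ly6g had 0 reads in all 12 libraries of both tissues, so that it says nothing of neutrophils here. Ccr2, the chemokine receptor of monocytes, followed the order of groups seen for Pycard, with 5, 6 and 1 reads in control brain and 14, 18 and 8 after heat stress. These were 0.343, 0.524 and 0.0809 against 1.29, 1.61 and 0.756 normalized CPM. Ly6c2 leaned the other way, with 5, 3 and 2 reads in control brain and 2, 2 and 1 after heat stress. So did Mpo, with 3, 5 and 4 against 3, 2 and 1 reads. Only 2 of the 8 markers had enough reads in brain to be tested. With the neutrophil and monocyte score as a covariate, added after the data were seen, the log2 fold change of Pycard was 0.65 (unadjusted p = 0.0387, adjusted p = 0.404 in edgeR). Summed microglia markers overlapped between the groups, from 351 to 461 CPM in control and from 375 to 431 CPM in heat stress brain. GENCODE places 485 exonic bases of Pycard under a gene model of the other strand, Gm45205, and the use of strand in the counting is not given in the sources used here.

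The sensor Nlrp3 (chr11:59541568-59566956, plus strand) had 12, 16 and 13 reads in control brain and 5, 9 and 10 reads after heat stress, or 0.823, 1.40 and 1.05 against 0.462, 0.806 and 0.944 normalized CPM. The groups overlapped, since heat stress replicate 3 lay between the control values, and the log2 fold change of -0.54 had an SE of 0.42 (adjusted p = 0.481). That log2 fold change was -0.31 without heat stress replicate 1 and -1.04 with the striatum score as a covariate. Casp1 (chr9:5298517-5307265, plus strand), the protease of the canonical inflammasome, had 4.80, 4.89 and 3.97 normalized CPM in control brain and 4.25, 6.18 and 4.91 after heat stress. Its groups overlapped (log2 fold change 0.17, SE 0.22; adjusted p = 0.696), and without heat stress replicate 2 the log2 fold change was 0.0073. Casp4 (chr9:5308828-5336783, plus strand), which encodes mouse caspase-11, the protease that binds bacterial lipopolysaccharide in the cytosol, had 7, 15 and 5 reads in control brain and 8, 18 and 14 reads after heat stress. These were 0.480, 1.31 and 0.405 against 0.739, 1.61 and 1.32 normalized CPM, overlapping, with a log2 fold change of 0.77 and a wide 95% interval from -0.41 to 1.95 (adjusted p = 0.424). Single left-out libraries moved it from 0.49, without control replicate 3, to 1.44, without control replicate 2 (unadjusted p = 0.0256 in edgeR). Casp1 and Casp4 are neighbouring paralogs, and reads that both could take are uncertain. Gsdmd (chr15:75862327-75867408, plus strand), whose product forms the pyroptotic pore, had 4.32, 2.88 and 2.27 normalized CPM in control brain and 2.40, 4.48 and 3.21 after heat stress. The groups overlapped, with heat stress replicate 2 the highest and control replicate 3 the lowest (log2 fold change 0.08, SE 0.33; adjusted p = 0.906), and without control replicate 3 or without heat stress replicate 2 the sign turned, to -0.11 and -0.18. Pycard, Casp1, Casp4, Gsdmd and Myd88 all had their highest brain value in heat stress replicate 2, the library with the most S100a8 and S100a9. With the neutrophil and monocyte score as a covariate the log2 fold changes were 0.032 for Casp1, 0.45 for Casp4, -0.062 for Gsdmd and 0.093 for Myd88. That score is highest in the same library, so the covariate and leaving the library out are not independent of each other, and the part of other cells in these values was not tested.

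Myd88 (chr9:119335934-119341411, minus strand), the adaptor of most Toll-like receptors and of the IL-1 receptor, had 5.76, 5.67 and 5.18 normalized CPM in control brain and 6.46, 6.54 and 5.48 after heat stress. Heat stress replicate 3 lay among the control libraries, and the log2 fold change was 0.15 (SE 0.19; adjusted p = 0.668). GENCODE lets 223 exonic bases of Myd88 overlap with Slc22a14 or Acaa1a, genes on either strand. Nfkb1 (chr3:135584655-135691547, minus strand), which encodes p105, the precursor of the NF-kB subunit p50, had 17.8, 17.0 and 21.8 normalized CPM in control brain and 14.3, 15.2 and 16.4 after heat stress. All 3 heat stress libraries lay below all 3 control libraries, yet the log2 fold change of -0.30 (SE 0.14, 95% interval -0.62 to 0.03) passed neither threshold (unadjusted p = 0.0674, edgeR adjusted p = 0.278). It was -0.18 without control replicate 3 and -0.37 without control replicate 2 (unadjusted p = 0.244 and 0.0412 in edgeR). Nfkbia (chr12:55489410-55492647, minus strand), the inhibitor with the NF-kB match shown above, had 22.8, 19.7 and 18.3 normalized CPM in control brain and 19.9, 22.03 and 23.0 after heat stress. The groups overlapped, and the narrow 95% interval of its log2 fold change, -0.20 to 0.39 around 0.10, bounds a change of this transcript in these libraries (adjusted p = 0.705).

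In liver Nlrp3 had too few reads to be tested, and none of the other 9 members passed an adjusted p-value of 0.05 in edgeR's quasi-likelihood test, where 0% of 12296 genes did. The unadjusted p-value was under 0.05 for 1 of the 9, Gsdmd, higher after heat stress, beside 5.84% of all genes tested (2.97% higher and 2.87% lower). DESeq2 gave no member at either threshold, while it called 61 genes over the whole table. Of the 9 log2 fold changes, 8 were above 0 and 1 below, with a median of 0.22 and a range from -0.05 to 0.40. Over all 12296 tested genes 6369 were above 0 and the median was 0.01. Macrophage and Kupffer cell markers (11 of 11) and T and NK cell markers (5 of 5 tested) were above 0 as well, and their part in the members' values was not tested. The groups did not overlap for Gsdmd and Nod1, both higher after heat stress, or 2 of the 9, beside 11.1% of all genes tested.

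**Figure D2:**
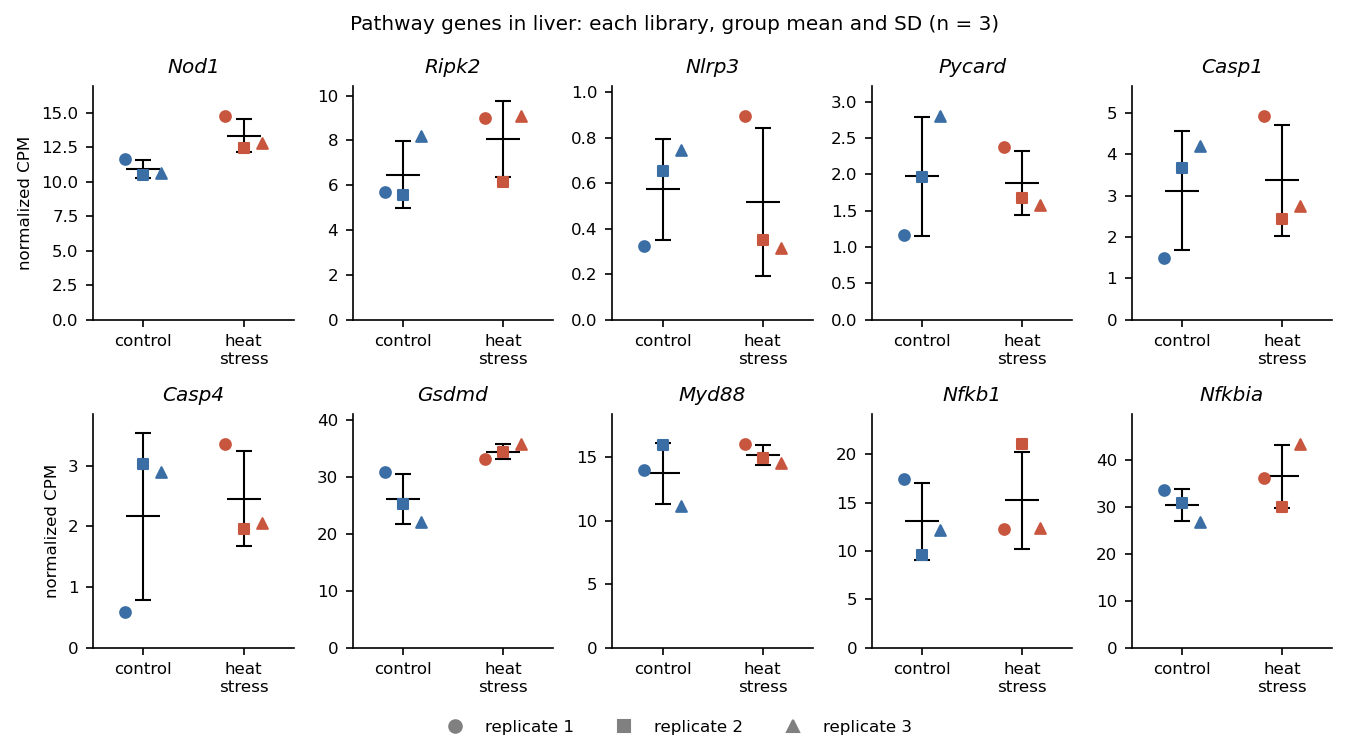
Normalized CPM (vertical axes, from 0) of the 10 genes in the 3 control and 3 heat stress liver libraries, with bars for the group mean and SD. Gsdmd and Nod1 have every heat stress library above every control library, and Casp1 and Casp4 have their lowest value in control replicate 1 and their highest in heat stress replicate 1.

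Nod1 had 11.7, 10.5 and 10.6 normalized CPM in control liver and 14.7, 12.5 and 12.9 after heat stress. Every heat stress library lay above the controls, but by 0.29 on the log2 scale (SE 0.18, 95% interval -0.11 to 0.68) and short of either threshold (unadjusted p = 0.138, edgeR adjusted p = 0.930). Over 17 alternatives that log2 fold change stayed above 0, between 0.19 and 0.37, with adjusted p-values from 0.521 to 1.00. Ripk2 had 5.68, 5.55 and 8.20 normalized CPM in control liver and 9.01, 6.13 and 9.07 after heat stress. Control replicate 3 and heat stress replicate 2 crossed between the groups, and the log2 fold change was 0.32 (SE 0.25; adjusted p = 0.943).

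The reads of Nlrp3 numbered 5, 8 and 8 in control liver and 12, 5 and 4 after heat stress, or at most 0.893 normalized CPM. Pycard had 1.16, 1.96 and 2.80 normalized CPM in control liver and 2.38, 1.67 and 1.58 after heat stress, where the groups overlapped fully (log2 fold change -0.05, SE 0.39; adjusted p = 0.996), and without control replicate 3 the sign turned, to 0.27. Casp1 had 1.48, 3.67 and 4.19 normalized CPM in control liver and 4.91, 2.44 and 2.76 after heat stress, and Casp4 had 0.581, 3.02 and 2.89 against 3.35, 1.95 and 2.05. Both caspases were lowest in control replicate 1 and highest in heat stress replicate 1, with overlapping groups. Their log2 fold changes were 0.13 (SE 0.42; adjusted p = 0.984) and 0.21 (SE 0.53; adjusted p = 0.983), and both turned below 0 without control replicate 1, to -0.23 and -0.28. Macrophage and Kupffer cell markers, all 11 of them detected in every liver library, were likewise lowest in control replicate 1 at 199 CPM and highest in heat stress replicate 1 at 439.9 CPM, with 258.8 to 313 CPM in the other libraries; their part in the caspase values was not tested.

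Gsdmd had 477, 310 and 237 reads in control liver and 445, 494 and 453 after heat stress. As normalized CPM these were 30.8, 25.3 and 22.1 against 33.1, 34.4 and 35.7, or 26.1 ± 4.40 against 34.4 ± 1.30 (SD, n = 3 each). All 3 heat stress libraries lay above all 3 control libraries, and the control libraries were the more spread. The log2 fold change was 0.40 (SE 0.18, 95% interval 0.01 to 0.79; unadjusted p = 0.0464, edgeR adjusted p = 0.849). The unadjusted call was lost under most alternatives, among them DESeq2, RLE scaling and every single left-out library but control replicate 1, while the log2 fold change stayed between 0.29 and 0.53. With RLE scaling it was 0.38 (unadjusted p = 0.0539 in edgeR). Among the liver libraries whose column names carry the suffix 2nd, which no source used here explains, the heat stress mean of log2 values was 0.44 above the control value, and among the others it was 0.40 above. Each of these sets has a single library in 1 of its groups. Of the other members, Ripk2 (0.69 with the suffix and -0.15 without), Casp4 (-0.19 and 0.47), Myd88 (-0.07 and 0.25) and Casp1 (0.0079 and -0.044) differed in sign between the sets, and Nfkbia was at 0.35 and 0.0029. T and NK cell markers were higher in heat stress liver, from 7.53 to 15.6 CPM against 2.00 to 5.79 CPM. Past an unadjusted p-value of 0.05 were 3 of the 5 tested, beside 5.84% of all genes tested in liver. The part of these cells in the Gsdmd values was not tested.

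Myd88 had 14.0, 16.0 and 11.2 normalized CPM in control liver and 16.0, 14.9 and 14.5 after heat stress, within overlapping groups (log2 fold change 0.14, SE 0.19; adjusted p = 0.963). Nfkb1 had 17.4, 9.62 and 12.2 normalized CPM in control liver and 12.3, 21.0 and 12.4 after heat stress. The highest value of each group fell in the library with skeletal muscle transcripts, control replicate 1 and heat stress replicate 2. The log2 fold change of Nfkb1 was 0.22 (SE 0.28; adjusted p = 0.963), and without heat stress replicate 2 it was -0.09. Nfkbia had 33.6, 31.0 and 26.8 normalized CPM in control liver and 36.2, 30.1 and 43.5 after heat stress, overlapping through heat stress replicate 2. Its log2 fold change was 0.26 (SE 0.19, 95% interval -0.16 to 0.68; adjusted p = 0.936). With both libraries that hold muscle transcripts left out, 2 members were past an unadjusted p-value of 0.05, Gsdmd at a log2 fold change of 0.53 and Nfkbia at 0.45, and still none past the adjusted one in edgeR. Over all genes 1274 of 12239 were past the unadjusted p-value in that fit, against 718 of 12296 in the main fit.

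**Figure D3:**
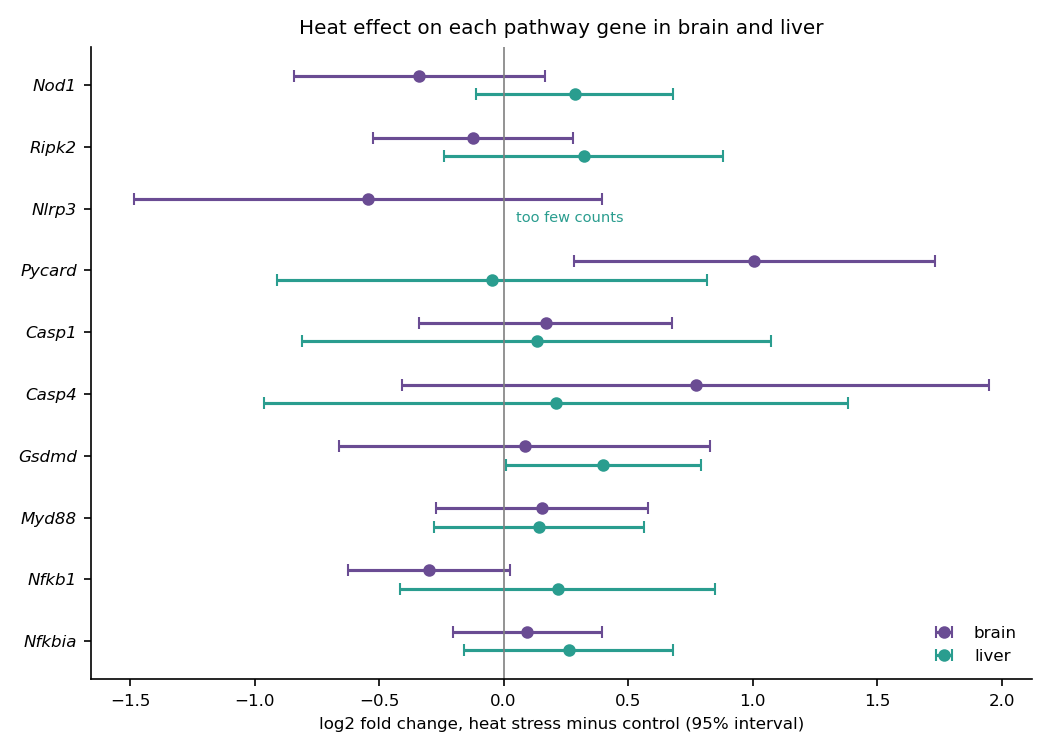
Log2 fold change of heat stress minus control (horizontal axis) for each gene in brain and in liver, with the 95% interval of edgeR's quasi-likelihood fit. Intervals lie wholly above 0 for Pycard in brain (0.28 to 1.73) and Gsdmd in liver (0.01 to 0.79), before any adjustment for the number of genes.

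Whether heat acted differently on a gene between the tissues was tested in a fit of the 4 groups. The methods give 3 mice per group, so brain and liver libraries can share mice, and the fit treated all libraries as independent. No member passed an adjusted p-value of 0.05 in that edgeR test, where 0.00632% of the 15824 genes did, nor with DESeq2, which gave 5 of the 10 members an adjusted p-value. At an unadjusted p-value under 0.05, reached by 9.64% of all genes, was 1 of 10 members, Nod1, whose liver effect minus brain effect was 0.61 on the log2 scale (SE 0.28; unadjusted p = 0.0475, adjusted p = 0.516). Over the alternatives this difference lay between 0.49 and 0.79. The unadjusted call was lost with the replicate block, without brain control replicate 3 (0.49) or brain heat stress replicate 3 (0.54), and without any 1 liver library but control replicate 1 (0.54 to 0.64). In brain alone the log2 fold change of Nod1 was -0.16 without control replicate 3. It was 0.14 with the choroid plexus score and 0.021 with the striatum score as a covariate, scores whose markers differed between the groups. Nod1 was lower in 1 brain heat stress library than in every brain control, and higher in all 3 liver heat stress libraries than in every liver control. Pycard went the other way, by -1.05 (SE 0.51; unadjusted p = 0.0587, adjusted p = 0.520 in edgeR). The other 8 differences lay between -0.54 and 0.49.

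Levels of the members were then set side by side across the tissues. On a scale shared by all 12 libraries and per kilobase of messenger RNA, Nfkbia was the highest of the 10 genes in each of the 4 groups, with 8.78 ± 0.974 CPM per kb in control brain and 28.6 ± 4.97 in control liver (SD, n = 3 each). In control brain Nfkb1 followed with 3.13 ± 0.449, then Casp1 at 2.08 ± 0.219, Ripk2 at 2.03 ± 0.136 and Myd88 at 1.93 ± 0.0981, whose ranges overlap each other. Gsdmd at 1.20 ± 0.401 and Nod1 at 1.13 ± 0.254 CPM per kb overlapped as well, and Pycard at 0.504 ± 0.141 and Casp4 at 0.348 ± 0.236 did too. Nlrp3 had the lowest mean, 0.185 ± 0.0481 CPM per kb, and its range overlapped that of Casp4. In control liver the order after Nfkbia was Gsdmd at 21.6 ± 5.17 and Myd88 at 10.3 ± 1.90 CPM per kb, of which Nfkbia and Gsdmd overlapped and Myd88 lay apart from both. Nfkb1 at 4.76 ± 1.80, Nod1 at 3.75 ± 0.495, Ripk2 at 3.54 ± 0.739 and Casp1 at 3.01 ± 1.26 CPM per kb overlapped each other, Casp4 had 2.16 ± 1.31 and Pycard 0.754 ± 0.282, and Nlrp3 was again the lowest at 0.207 ± 0.0705. The annotated messenger RNA of Pycard is 3800 bases with a long last exon, and if most of its transcripts are shorter its level per kb is understated.

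**Figure D4:**
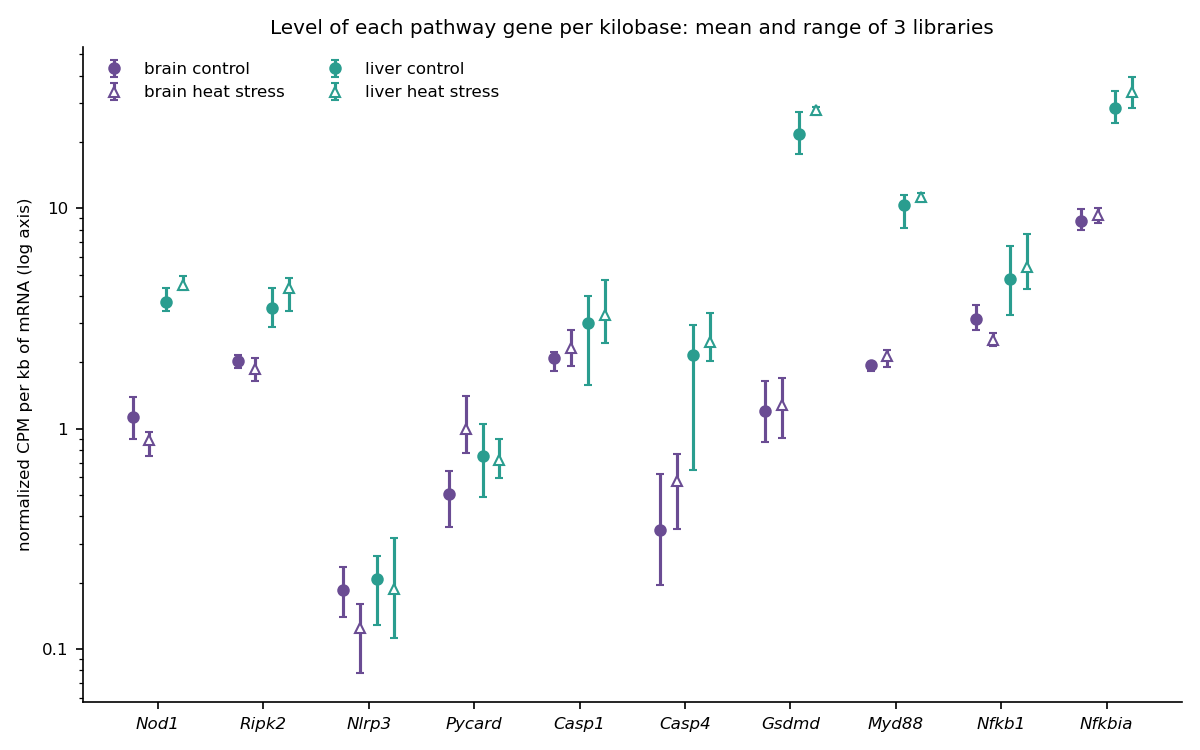
Level of each gene as CPM per kilobase of messenger RNA on a shared scale (log vertical axis), with the mean as a point and the range of 3 libraries as a bar, for control and heat stress brain and liver. Nfkbia is the highest gene in all 4 groups, and Gsdmd is sixth of 10 in brain (1.20 in control) and second in liver (21.6).

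Control brain was also tested against control liver. Past an adjusted p-value of 0.05 in edgeR were 6 of 10 members, all higher in liver, where 36.1% of all genes were higher in liver and 44.2% higher in brain. Gsdmd was 17.7-fold higher in liver (log2 brain minus liver -4.15, SE 0.27; adjusted p = 6.2e-09) and Casp4 6.15-fold (-2.62, SE 0.58; adjusted p = 9.1e-04). Myd88 was 5.34-fold higher (adjusted p = 2.06e-08), Nod1 3.33-fold (adjusted p = 2e-06), Nfkbia 3.26-fold (adjusted p = 6.41e-07) and Ripk2 1.73-fold (adjusted p = 0.00342), all in edgeR. For Nlrp3, Pycard, Casp1 and Nfkb1 the differences of -0.14, -0.57, -0.52 and -0.60 did not pass, and that of Nfkb1 was close to the threshold (adjusted p = 0.0548). These folds depend on the scaling. With library totals alone, an alternative added after the data were seen, the median of all genes moved from 0.24 to 1.33. The log2 differences of brain minus liver became 0.29 for Ripk2, 0.92 for Nlrp3, 0.49 for Pycard, 0.54 for Casp1 and 0.51 for Nfkb1. These 5 were then lower in liver without passing the test. The other 5 remained higher in liver on that scale and past the adjusted p-value, at smaller log2 differences of -3.05 for Gsdmd, -1.59 for Casp4, -1.33 for Myd88, -0.64 for Nod1 and -0.61 for Nfkbia.

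Of the other genes of these pathways, 89 were listed in 5 groups, and 68 were tested in brain and 74 in liver. None passed an adjusted p-value of 0.05 in edgeR in either tissue. By the unadjusted p-value 8 passed in brain, 4 higher and 4 lower, which is 11.8% of those tested beside 20.1% of all genes. In liver there were 4, all higher, or 5.41% beside 5.84%.

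**Figure D5:**
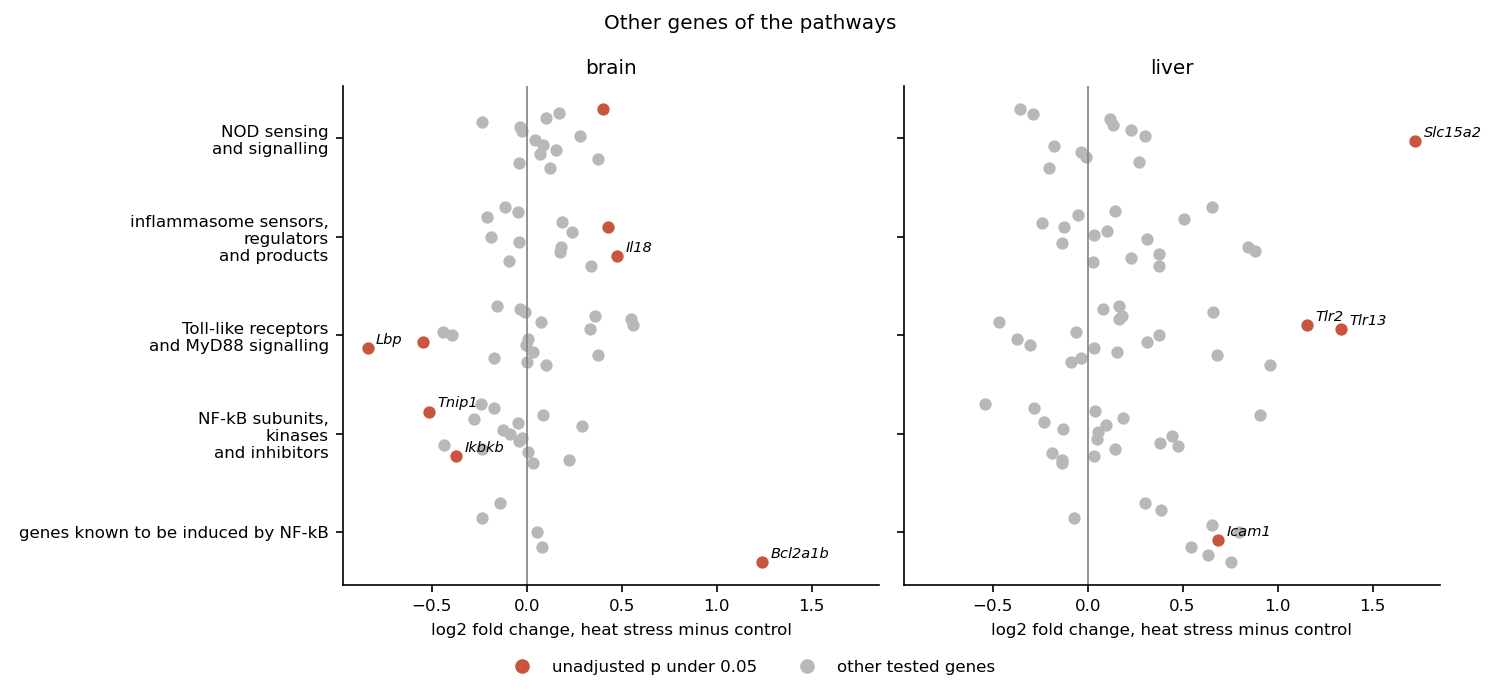
Log2 fold change of heat stress minus control (horizontal axes) for the tested genes of 5 pathway lists in brain and liver, 1 point per gene, with points at an unadjusted p-value under 0.05 in red. In brain such points lie on both sides of 0, from -0.84 for Lbp to 1.24 for Bcl2a1b, and in liver all 4 lie above 0.

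Of the 14 genes of NOD sensing and signalling, 1 of the 14 tested in brain was past the unadjusted threshold, Xiap, a ubiquitin ligase that acts on RIPK2. In liver it was 1 of 12, Slc15a2, a peptide transporter that carries muramyl peptides into cells. Of all genes tested, 20.1% were past that threshold in brain and 5.84% in liver. Slc15a2 had 0.258, 1.79 and 2.24 normalized CPM in control liver and 5.66, 1.81 and 6.31 after heat stress. The groups overlapped through heat stress replicate 2, at a log2 fold change of 1.73 (SE 0.65; unadjusted p = 0.0236, edgeR adjusted p = 0.799). Without control replicate 2 or heat stress replicate 1 or 3 the unadjusted call was lost, at 1.94, 1.51 and 1.40. This gene passed the adjusted p-value in 2 alternatives: with both muscle-bearing libraries left out (log2 fold change 1.56, adjusted p = 0.0370) and with the skeletal muscle score as a covariate (2.12, adjusted p = 0.00767), both in edgeR. Over the whole table these fits called 81 and 75 genes. Nod2, the receptor for muramyl dipeptide, had at most 15 reads in brain, at a log2 fold change of 0.04 (SE 0.37; adjusted p = 0.958), and at most 6 reads in liver, too few to test.

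Of 22 inflammasome sensors, regulators and products, 13 were tested in brain and 16 in liver. In brain 2 were higher at the unadjusted threshold, Ninj1, whose product ruptures the membrane of dying cells, and Il18, a cytokine that caspase-1 matures. Of all genes tested in brain 10.0% were higher at that threshold. Il18 had 22.0, 27.7 and 24.0 normalized CPM in control brain and 30.3, 41.5 and 30.6 after heat stress. All 3 heat stress libraries lay above the controls, and replicate 2 was again the highest (log2 fold change 0.48, SE 0.16; unadjusted p = 0.0132, edgeR adjusted p = 0.173). Without that replicate it was 0.31 (unadjusted p = 0.0621 in edgeR), and with the neutrophil and monocyte score as a covariate 0.30 (unadjusted p = 0.0353). In liver none of the 16 passed, and Il18 had 14.9, 24.6 and 20.8 against 23.2, 19.1 and 19.0 normalized CPM (log2 fold change 0.03; adjusted p = 0.995). Il1b, the other cytokine matured by caspase-1, had at most 12 reads in brain, too few to test. In liver Il1b had 1.23, 3.02 and 14.5 normalized CPM in control and 16.4, 6.27 and 11.2 after heat stress, where the control libraries alone spanned most of the range (log2 fold change 0.88, SE 0.85; adjusted p = 0.947).

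Of 23 genes of Toll-like receptors and MyD88 signalling, 19 were tested in each tissue. In brain 2 were lower at the unadjusted threshold, Lbp, a plasma protein that binds lipopolysaccharide, and Ticam1, the adaptor TRIF. Of all genes tested in brain 10.0% were lower at that threshold. Lbp had 8.71, 6.98 and 11.2 normalized CPM in control brain and 4.43, 7.26 and 3.31 after heat stress. Heat stress replicate 2 lay among the controls (log2 fold change -0.84, SE 0.30; unadjusted p = 0.0209, edgeR adjusted p = 0.192). Choroid plexus markers followed nearly the same libraries, with 88.6, 72.3 and 152 CPM in control brain and 40.4, 60.6 and 20.0 CPM after heat stress, and with their score as a covariate the log2 fold change of Lbp was -0.014. With the striatum score, whose markers moved the opposite way, it was -0.076. Over all genes the unadjusted calls went from 2969 to 1439 with the choroid plexus score and 600 with the striatum score. The choroid plexus sums did not overlap between the groups, so these fits cannot part that score from the heat effect. The part of choroid plexus in the Lbp values was not tested. The unadjusted call of Lbp was also lost without control replicate 3 and without heat stress replicate 1 or 3, at log2 fold changes of -0.65, -0.76 and -0.61. In liver 2 were higher, Tlr2, a receptor for bacterial lipoproteins, and Tlr13, a receptor for bacterial ribosomal RNA. Of all genes tested in liver 2.97% were higher at the unadjusted threshold. Tlr2 had 0.904, 2.04 and 1.21 normalized CPM in control liver and 4.54, 2.93 and 1.74 after heat stress, overlapping through heat stress replicate 3 (log2 fold change 1.16, SE 0.44; unadjusted p = 0.0251, edgeR adjusted p = 0.799). Tlr13 had 0.581, 0.408 and 1.21 against 2.75, 1.67 and 1.03 normalized CPM, likewise overlapping through heat stress replicate 3 (log2 fold change 1.34, SE 0.51; adjusted p = 0.800). Both receptors were highest in heat stress replicate 1, the liver library with the most macrophage and Kupffer cell transcript, and without it their log2 fold changes were 0.75 and 0.88 with unadjusted edgeR p-values of 0.142 and 0.158. The calls were also lost without control replicate 1, at 0.90 for Tlr2 and 1.17 for Tlr13, and that of Tlr2 without control replicate 3, at 1.07, and that of Tlr13 without control replicate 2, at 1.05. All 11 macrophage and Kupffer cell markers had a log2 fold change above 0 in liver, with a median of 0.38. The unadjusted threshold was passed by 1 of them, beside 5.84% of all genes tested in liver. The part of these cells in the receptor values was not tested.

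Of 18 NF-kB subunits, kinases and inhibitors, 17 were tested in brain and 18 in liver. In brain 2 were lower at the unadjusted threshold and 12 of 17 log2 fold changes were below 0, where 7449 of the 14806 tested genes were below 0 and 10.0% were lower at that threshold. Ikbkb, the kinase that marks IκBα for degradation, had 40.7, 34.5 and 38.7 normalized CPM in control brain and 25.4, 32.0 and 30.6 after heat stress. Tnip1, which restrains NF-kB signalling, had 28.7, 21.5 and 23.2 against 16.1, 17.3 and 17.9 normalized CPM. In both genes all heat stress libraries lay below all controls, at log2 fold changes of -0.37 (SE 0.13; adjusted p = 0.183) and -0.52 (SE 0.14; adjusted p = 0.170). Of the 3 marker scores tried as covariates, that of neutrophils and monocytes kept both unadjusted calls, at -0.38 for Ikbkb and -0.46 for Tnip1, and the other two lost them with log2 fold changes still below 0. With the choroid plexus score they were -0.31 for Ikbkb and -0.55 for Tnip1, with unadjusted p-values of 0.182 and 0.0505 in edgeR. With the striatum score they were -0.24 and -0.38, with unadjusted p-values of 0.296 and 0.161 in edgeR. Over all genes 2969 passed the unadjusted p-value in the main fit. With the neutrophil and monocyte, choroid plexus and striatum scores 1738, 1439 and 600 did. Choroid plexus and striatum markers differed between the groups, so those fits cannot part a score from the heat effect. The part of these cell types in both genes was not tested. Ikbkb also lost the call without control replicate 1 and without heat stress replicate 1, at -0.32 and -0.29, and Tnip1 with all 12 libraries in 1 fit, at -0.52. Rela, the subunit p65, had a log2 fold change of -0.28 (SE 0.17, adjusted p = 0.364) in brain and 0.19 (SE 0.23, adjusted p = 0.960) in liver, with overlapping groups. In brain Rela was at -0.45 without control replicate 2 (unadjusted p = 0.00738 in edgeR) and at -0.18 without control replicate 3. In liver none of the 18 passed the unadjusted threshold, and 11 were above and 7 below 0.

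Of 12 genes known to be induced by NF-kB, 5 were tested in brain and 9 in liver. Bcl2a1b, an inhibitor of apoptosis in blood cells, had 17, 14 and 16 reads in control brain and 25, 42 and 28 after heat stress, or 1.17, 1.22 and 1.30 against 2.31, 3.76 and 2.64 normalized CPM. Its heat stress libraries all lay above the controls, with replicate 2 the highest, at a log2 fold change of 1.24 (SE 0.30; unadjusted p = 0.00260, edgeR adjusted p = 0.170). Bcl2a1b has close copies in the mouse genome that can share its reads, and GENCODE places 401 of its exonic bases under Gm29094 on the same strand, which makes its level uncertain. Icam1, an adhesion molecule for leukocytes, had 4.52, 5.79 and 7.18 normalized CPM in control liver and 10.6, 8.57 and 8.83 after heat stress, with no overlap (log2 fold change 0.69, SE 0.23; unadjusted p = 0.0145, edgeR adjusted p = 0.724). The unadjusted call was lost without control replicate 1 and without heat stress replicate 1, at 0.52 and 0.57. In liver 8 of the 9 log2 fold changes of these induced genes were above 0, with a median of 0.63, where 6369 of the 12296 tested genes were above 0. Markers of macrophages and Kupffer cells (11 of 11, median 0.38) and of T and NK cells (5 of 5, from 0.80 to 2.16) were above 0 in the same libraries. Endothelial markers were above 0 for 5 of 6, with 0 past the unadjusted threshold. They summed to between 90.8 and 99.7 CPM in heat stress liver, against 75.8 to 87.3 CPM in control. The part of these cell types in the Icam1 and other values was not tested. Tnfaip3, the feedback inhibitor A20, had log2 fold changes of -0.24 (SE 0.22; adjusted p = 0.565) in brain and 0.39 (SE 0.37; adjusted p = 0.947) in liver. Tnf had at most 2 reads in brain and 5 in liver, so no change of it was detectable at this depth.

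By the correlation of log2 CPM over the 6 libraries of a tissue, given as a description without a p-value, the tested genes most like Nfkbia in brain were Fbl, Cnih3 and Asphd1 (Pearson r 0.99, 0.98 and 0.98) and in liver Pbld1, Syne4 and Adi1 (0.99, 0.99 and 0.98). Those most like Nod1 were Ktn1, Lhfp and Flvcr2 in brain (0.99, 0.98 and 0.98) and Rgs3, Hbp1 and Ifi27 in liver (0.99, 0.98 and 0.98). With 6 libraries and 12296 or more genes to choose from, the highest values are high by selection, and nothing is drawn from them.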

How the data were processed

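The authors deposited raw read counts of 25239 gene symbols in 12 libraries of stranded, paired-end messenger RNA sequencing. The submitters' processing notes list FastQC 0.11.9, Trimmomatic 0.39, HISAT2 2.2.1 and featureCounts of Subread 2.0.1 on mm10, while the methods also describe Tophat2 and HTSeq. The annotation and the strand setting are not given in the sources used here. The tables of log2 fold changes and p-values that the authors deposited, made with DESeq2 1.22.2, hold their own comparisons and were not used.

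Counts were analysed in R 4.3.3 with edgeR 4.0.16 (quasi-likelihood test, robust, TMM, filterByExpr with a minimum count of 10 and total of 15) in each tissue and in 1 fit of the 4 groups, with Benjamini-Hochberg adjustment over all genes tested and a threshold of 0.05. A standard error is the size of the log2 fold change divided by the root of its F statistic. Alternatives were other scalings, DESeq2 1.42.0 with and without its filter on mean counts, other filters, all 12 libraries in 1 fit, the replicate number as a block, marker scores or the column suffix as covariates, and each library left out. The procedures were tested on simulated data. No pair of replicates had identical counts or agreed within sampling noise. An exact permutation test of 3 against 3 cannot fall below 0.1, so none was used. The members and the lists were chosen with earlier results of these data known. Members are always named, and of the lists the 5 genes with the smallest unadjusted p under 0.05 in each tissue, besides Nod2, Rela, Il1b, Il18, Tnfaip3 and Tnf; Xiap, Ninj1 and Ticam1 were named after their values were seen. Gene coordinates and mRNA lengths (the longest transcript paired with RefSeq) are from GENCODE M21 on GRCm38.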

Additional observations from a re-analysis of the deposited data

How the results depend on the processing

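No member that had an adjusted p-value passed it under any of the 17 alternatives in brain, the 17 in liver or the 17 of the difference between tissues. DESeq2's filter on mean counts left 10 members in brain, 1 in liver and 5 in the difference without one. Without that filter the genes called by DESeq2 went from 618 to 287 in brain and from 61 to 48 in liver, and no member passed. The count of members past an unadjusted p-value in brain was 0 to 3 with single libraries left out. It was 0 without heat stress replicate 2, where 1665 of 15029 genes passed. It was 3 without control replicate 2 (Pycard, Casp4 and Nfkb1), where 4027 of 14979 genes passed. In liver the count of 1 went to 0 with RLE scaling, DESeq2, all 12 libraries in 1 fit, either other filter and the suffix as a covariate. Each single left-out library but control replicate 1 also took it to 0 (0 to 1). It went to 2 without both muscle-bearing libraries, where 1274 of 12239 genes passed, against 718 of 12296 in the main fit. The 8 listed genes in brain became 5 with all 12 libraries in 1 fit. They became 4 with the choroid plexus score and 2 with the striatum score as a covariate. The count over all genes went from 2969 to 1445, 1439 and 600 in those fits. With single libraries left out the listed count in brain ran from 4 to 12, and that of all genes from 1655 to 4027. The 4 in liver became 2 with the stricter filter, 10 without both muscle-bearing libraries and 12 with the muscle score. All genes went from 718 to 620, 1274 and 1262 in those fits. With single libraries left out the listed count in liver ran from 1 to 10, and that of all genes from 414 to 1614. With the choroid plexus score the brain log2 fold changes of Nod1, Nfkbia and Nod2 turned to 0.14, -0.022 and -0.38, with the striatum score those of Nod1, Nod2 and Rela to 0.021, -0.55 and 0.0045, and with the neutrophil score that of Gsdmd to -0.062. Left-out libraries moved Gsdmd in brain between -0.18 and 0.39 and Nod2 between -0.20 and 0.27, and in liver Pycard between -0.35 and 0.27, Casp1 between -0.26 and 0.40, Casp4 between -0.28 and 0.54, Nfkb1 between -0.090 and 0.47 and Il18 between -0.16 and 0.20. In liver, without both muscle-bearing libraries Casp1, Casp4 and Il18 were at -0.042, -0.14 and -0.12, with the suffix as a covariate Casp1 and Il18 at -0.050 and -0.061, and with the muscle score Pycard at 0.10. For control brain minus control liver, Nlrp3 lay between -0.41 and 0.060 with single libraries left out, and scaling by library totals gave 0.29 for Ripk2, 0.92 for Nlrp3, 0.49 for Pycard, 0.54 for Casp1 and 0.51 for Nfkb1. The causes of these moves were not tested. Deviations of same-numbered libraries from their group mean correlated at -0.29, 0.19 and -0.20 in brain and -0.58, -0.51 and -0.09 in liver. The highest liver value, 0.55, joined control replicate 1 and heat stress replicate 2, the muscle-bearing libraries. Deviations within groups of 3 depend on each other, so these values cannot show whether replicate numbers pair the samples. With the replicate block the adjusted count stayed 0 in both tissues, and the unadjusted count was 1 in brain and 0 in liver. Over all genes 2852 of 14806 passed the unadjusted p-value in brain with that block, and 321 of 12296 in liver. With 3 libraries a group and counts under 20 for Nlrp3 and for Casp4 in brain, intervals of those genes span more than a 2-fold change. Several other members have intervals as wide as that. Among them are Pycard (0.28 to 1.73) and Gsdmd (-0.66 to 0.83) in brain and Nfkb1 (-0.42 to 0.85) in liver.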
